A study of Mus musculus with 18 samples.

Results

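The genes described here are 7 genes linked to excitatory neurons of the forebrain: Tbr1, Fezf2, Neurod2, Nrgn, Ptk2b, Cx3cl1 and St6galnac5. They were picked from a named set with their signals in wild-type brain regions already known, and every probe set annotated with only 1 of these symbols was taken. All 7 had a probe set, among 8251 genes that the annotation named by a single symbol. Cx3cl1 had a pair of probe sets and each other gene had 1, which gave 8 probe sets, and 8 passed the filter on dim signals.

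The study compared wild-type mice (WT) with Aldh5a1-/- mice (called KO here), which lack succinate semialdehyde dehydrogenase, a mitochondrial enzyme of GABA breakdown. The KO mice were animals 3363, 3389 and 3403 and the WT mice were animals 3396, 3405 and 3406. Hippocampus, cortex and cerebellum of each mouse were put on 1 array each, so 18 arrays fell into 6 groups of 3. The labels used here give no age, strain or sex, and no driver, drug or tissue-specific allele is named for either genotype. The source label reads hippocampus for all arrays, so the region came from the title and description, and 18 of 18 arrays lay nearest to the other arrays of that region. Aldh5a1 had 0 probe sets with its symbol, so the genotype rests on the labels.

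Excitatory, glutamate-releasing neurons of the cortex and hippocampus are made from progenitors of the dorsal forebrain under a cascade of transcription factors, and mature neurons carry synaptic proteins that respond to calcium. In the cerebellum the main excitatory neuron is the granule cell, which has a different origin. Tbr1 is a T-box transcription factor of newly made cortical projection neurons. Fezf2 is a zinc finger factor that specifies deep-layer neurons projecting below the cortex. Neurod2 is a basic helix-loop-helix factor of differentiating neurons that granule cells also use. Nrgn encodes neurogranin, a postsynaptic protein that binds calmodulin. Ptk2b encodes the calcium-responsive tyrosine kinase PYK2. Cx3cl1 encodes fractalkine, a neuronal chemokine whose receptor is on microglia. St6galnac5 encodes a sialyltransferase that adds sialic acid to gangliosides.

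In the RefSeq annotation of build GRCm38.p6, Tbr1 lies at chr2:61802863-61814114, Fezf2 at chr14:12338992-12346803 and Neurod2 at chr11:98325415-98329645. Nrgn lies at chr9:37544493-37552745, Ptk2b at chr14:66153257-66281100, Cx3cl1 at chr8:94772180-94782427 and St6galnac5 at chr3:152819885-152982210. The 250 bases before an annotated transcript start could be read for 5 of the 7 genes. Windows are shown for Tbr1 and Nrgn, of these 5 genes the pair nearest in pattern over the 18 arrays. Neurod2 is shown too, since its regional pattern was unlike that of the others. Capitals mark CAGATG or its reverse complement CATCTG, the E-box form that Neurod factors are known to bind. The window of Tbr1 lies inside the span of the gene, before an internal annotated transcript start, and so does the window of Fezf2, which is not shown. Each sequence is written 5' to 3' on the strand of the gene, from chr2:61804203-61804452 (plus strand), chr9:37552746-37552995 (minus strand) and chr11:98329646-98329895 (minus strand).
Tbr1: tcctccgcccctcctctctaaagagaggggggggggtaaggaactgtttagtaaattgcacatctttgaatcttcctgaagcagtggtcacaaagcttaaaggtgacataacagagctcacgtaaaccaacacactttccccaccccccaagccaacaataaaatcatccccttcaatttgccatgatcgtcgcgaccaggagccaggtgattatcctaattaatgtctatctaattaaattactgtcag
Nrgn: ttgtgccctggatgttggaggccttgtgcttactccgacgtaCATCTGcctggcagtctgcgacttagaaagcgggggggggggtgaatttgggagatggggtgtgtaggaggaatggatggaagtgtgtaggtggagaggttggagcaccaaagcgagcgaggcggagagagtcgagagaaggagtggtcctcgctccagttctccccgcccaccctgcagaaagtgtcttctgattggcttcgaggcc
Neurod2: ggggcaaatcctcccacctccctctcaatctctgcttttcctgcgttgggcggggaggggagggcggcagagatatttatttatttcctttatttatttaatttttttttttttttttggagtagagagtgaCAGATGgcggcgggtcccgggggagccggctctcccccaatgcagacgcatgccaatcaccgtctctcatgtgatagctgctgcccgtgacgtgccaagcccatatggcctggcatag

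CAGATG occurred 1 time in the windows of Nrgn and Neurod2 each, and 0 times in those of Tbr1, Cx3cl1 and Fezf2. In Nrgn it lay 208 to 203 bases before the start, and in Neurod2 118 to 113 bases before it. Of 32851 windows of the same length in the RefSeq table, 14.4% held it on either strand. The general E-box CANNTG, of which CAGATG is a case, occurred in 66.2% of all windows. It was found 1 time each in Tbr1, Nrgn and Cx3cl1, 3 times in Neurod2 and 0 times in Fezf2. The form CAGCTG, held by 13% of all windows, was in 0 of the 5. GGTGTGA, the core of the T-box motif, was in 3.33% of all windows and in 0 of the 5, GGGCGG was in 32.7% and in all 5, and TATAAA was in 12.4% and in Cx3cl1 only among the 5. These are letter matches in short windows, and binding was not measured.

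Signals below are the deposited array intensities, whose unit is arbitrary, so each gene is compared only with itself. Means are given with SD (n = 3 mice). Log2 values were taken after signals under 9.46 had been raised to that floor, and a difference passed when limma's Benjamini-Hochberg adjusted p over 8382 probe sets was under 0.05. In bulk tissue, fewer cells of a type and less RNA per cell cannot be told apart. WT regional levels took part in the choice of genes and are described with no test. KO regional differences were tested on the 9 KO arrays, with the animal as a block. Tbr1, Nrgn and Fezf2 passed the filter on dim signals through forebrain arrays alone (0 of 6 cerebellar arrays), and Ptk2b mostly so (2 of 6). Their folds over cerebellum are therefore given as descriptions with no p.

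**Figure D1:**
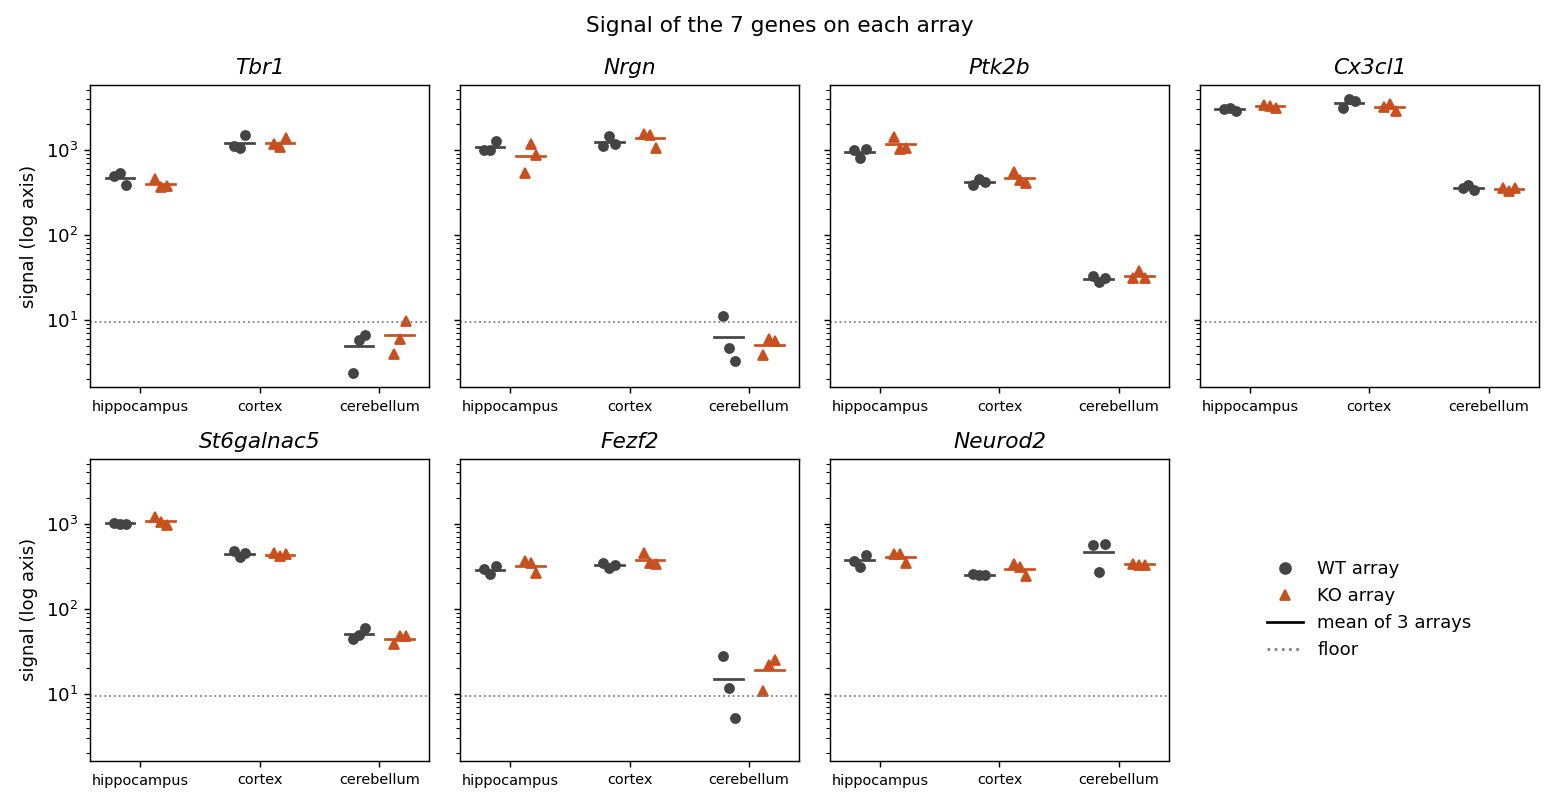
Signal of the 7 genes on each of the 18 arrays, with a log axis, by region and genotype. Points are single mice, and Neurod2 is the gene whose cerebellar signals (269 to 572 across both genotypes) reach the level of its forebrain signals.

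Tbr1 had a cortex-first pattern in both genotypes. In KO cortex its signals were 1172, 1086 and 1367 in animals 3363, 3389 and 3403. In KO hippocampus they were 458, 362 and 376, and in KO cerebellum 4.0, 6.02 and 9.71. The WT arrays lay in the same order. WT cortex gave 1121, 1049 and 1487, WT hippocampus 487, 532 and 382, and WT cerebellum 2.36, 5.76 and 6.74, all 3 under the floor. Cortex and hippocampus did not overlap in either genotype, and both lay far above cerebellum. In KO mice, Tbr1 was 126-fold higher in cortex than in cerebellum (log2 6.98) and 41.6-fold higher in hippocampus (log2 5.38). Since 2 of the 3 KO cerebellar arrays were under the floor, both folds depend on it, and with 16 added in place of the floor the log2 values were 5.76 and 4.2. Cortex exceeded hippocampus by 3.03-fold in KO (log2 1.60, adjusted p = 0.000108), and by 2.60-fold in WT. The order was the same in each of the 6 mice, with a cortex minus hippocampus log2 difference from 0.98 to 1.96.

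KO and WT arrays of Tbr1 overlapped in each region. In hippocampus the KO mean was 399 ± 51.7 and the WT mean 467 ± 77.1, a log2 difference of -0.22 (SE 0.15, 95% interval -0.54 to 0.09, limma adjusted p = 0.724). In cortex the means were 1208 ± 144 and 1219 ± 235, with an interval from -0.32 to 0.31. In cerebellum all but 1 of the 6 arrays were under the floor, so no genotype difference could be measured there. The per-mouse log2 mean of hippocampus and cortex did stand apart, at 9.29 to 9.52 in KO and 9.53 to 9.56 in WT. That difference was -0.11 (SE 0.08, limma adjusted p = 0.660) and did not pass.

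Fezf2 also had high forebrain signals in both genotypes, but hippocampus and cortex overlapped. KO cortex gave 448, 342 and 337, and KO hippocampus 359, 339.8 and 265. KO cerebellum gave 10.7, 22.0 and 25.0. WT cortex gave 345, 304 and 327, WT hippocampus 294, 252 and 318, and WT cerebellum 28, 11.6 and 5.12. Cerebellum stood apart from both forebrain regions in each genotype, and was variable between mice in both. In KO mice Fezf2 was 20.6-fold higher in cortex than in cerebellum (log2 4.37) and 17.6-fold higher in hippocampus (log2 4.14), and with 16 added these log2 values were 3.49 and 3.27. Cortex minus hippocampus was 0.23 (95% interval -0.42 to 0.87, limma adjusted p = 0.642).

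KO minus WT of Fezf2 was above 0 in all 3 regions and passed in 0. It was 0.15 in hippocampus, 0.20 in cortex and 0.31 in cerebellum, each with SE 0.32, since the fit shares 1 spread over all groups. The cerebellar value had a limma adjusted p of 0.747, and it was -0.00095 without WT animal 3406. It rests on dim signals and depends on the floor: it was 0.61 with no floor and 0.23 with 16 added.

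Neurod2 went against the label of forebrain gene on these arrays. WT cerebellum gave 567, 269 and 572 in animals 3396, 3405 and 3406, beside 365, 309 and 432 in WT hippocampus and 255, 247 and 248 in WT cortex. Its WT order was therefore cerebellum, hippocampus, cortex, with cerebellum and hippocampus overlapping and hippocampus above cortex on every array. KO hippocampus gave 441, 434 and 342, KO cerebellum 338, 325 and 329.8, and KO cortex 331, 312 and 244. In KO mice the hippocampus came first, and it lay above the other two regions on every array. The 1.22-fold difference between KO hippocampus and cerebellum missed the threshold (log2 0.29, 95% interval 0.04 to 0.53, limma adjusted p = 0.0590). It passed under quantile normalization (limma adjusted p = 0.0363) and without KO animal 3403 (0.0327). Cortex was 1.38-fold lower than hippocampus (log2 -0.46, limma adjusted p = 0.020), and lower in 3 of 3 KO and 3 of 3 WT mice. That call was lost when any 1 KO animal was left out: the adjusted p was then 0.0770 without 3363, 0.127 without 3389 and 0.0617 without 3403. It was also lost with no filter (limma adjusted p = 0.0664) and with no intensity trend (0.0610). KO cortex and cerebellum overlapped (log2 -0.18, limma adjusted p = 0.221).

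The KO cerebellar mean of Neurod2 was 331 ± 6.23 and the WT mean 469 ± 173. The log2 difference was -0.42 (SE 0.21, 95% interval -0.87 to 0.03, limma adjusted p = 0.448). WT animal 3405 set the spread: at 269 it lay below the 3 KO arrays, and the other 2 WT arrays lay above them. Without it, the difference was -0.78 with limma adjusted p = 0.0197, and the count of all probe sets called in cerebellum went from 3 to 121. In hippocampus the difference of Neurod2 was 0.14 (95% interval -0.31 to 0.59) and in cortex 0.23 (-0.22 to 0.68). The genotype by region test of limma gave Neurod2 the lowest p of the 7 genes, 0.0335, with adjusted p = 0.420. Markers of cerebellar granule cells did not pass in KO minus WT cerebellum (0 of 7 tested, median log2 0.12, against 0.03 for all probe sets). The 8 pan-neuronal markers were all below 0 there, with a median of -0.26, and 0 of 8 passed. Their summed signal was 8752 to 9585 on KO and 9859 to 11519 on WT cerebellar arrays. Their part in the Neurod2 values was not tested.

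Nrgn was a forebrain gene with no signal above the floor on any KO cerebellar array. KO hippocampus gave 528, 1159 and 876, KO cortex 1539, 1505 and 1050.2, and KO cerebellum 3.82, 5.94 and 5.67. WT hippocampus gave 984, 984 and 1258, WT cortex 1109, 1438 and 1161, and WT cerebellum 11, 4.68 and 3.27. Hippocampus and cortex overlapped in both genotypes. In KO mice the mean log2 signal of Nrgn was 6.42 over the floor in hippocampus and 7.15 over it in cortex. With the cerebellar arrays all under the floor, these are 85.8-fold and 142-fold against the floor itself and not a measured cerebellar level. With 16 added in its place the log2 values were 5.29 and 6.01. Cortex minus hippocampus was 0.73 (SE 0.23, limma adjusted p = 0.0594). It was 1.54 in KO animal 3363, 0.38 in 3389 and 0.26 in 3403. It passed under median scaling (adjusted p = 0.0499), with 16 added in place of the floor (0.0450) and with a stricter filter (0.0474) in limma.

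The low hippocampal array of KO animal 3363 also carried much of the genotype difference of Nrgn. KO minus WT in hippocampus was -0.39 (SE 0.21, 95% interval -0.84 to 0.05, limma adjusted p = 0.657), from means of 854 ± 316 and 1075 ± 158. Without animal 3363 it was -0.08. In cortex the KO mean was 1365 ± 273 and the WT mean 1236 ± 176, a log2 difference of 0.13 (95% interval -0.32 to 0.58).

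Ptk2b had the reverse forebrain order of Tbr1, with hippocampus first. KO hippocampus gave 1419, 1030.3 and 1053, KO cortex 548, 436 and 407, and KO cerebellum 30.9, 37.4 and 31.3. WT hippocampus gave 992, 802 and 1034, WT cortex 381, 449.9 and 417, and WT cerebellum 32.7, 27.6 and 30.7. The 3 regions did not overlap in either genotype. In KO mice Ptk2b was 34.9-fold higher in hippocampus than in cerebellum (log2 5.12), and 13.9-fold higher in cortex (log2 3.80). Cortex was 2.51-fold lower than hippocampus in KO (log2 -1.33, adjusted p = 0.000380), beside a hippocampus to cortex ratio of 2.26 in WT. The difference went the same way in all 6 mice, from -1.38 to -0.83.

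Of the 7 genes, Ptk2b had the lowest p for KO minus WT in hippocampus. The KO mean was 1167 ± 218 and the WT mean 943 ± 124, a log2 difference of 0.30 (SE 0.15, 95% interval -0.01 to 0.61, limma adjusted p = 0.617). KO animal 3363 was the highest array at 1419, and the KO array at 1030.3 lay below the WT array at 1034, so the groups overlapped. The differences in cortex and cerebellum were 0.15 and 0.13, with limma adjusted p of 0.801 and 0.782.

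By its brighter probe set, Cx3cl1 was about equally high in hippocampus and cortex and was also measured in cerebellum. Its brighter probe set gave 3335, 3268 and 3122 in KO hippocampus, 3184, 3439 and 2868 in KO cortex, and 353, 328 and 360.0 in KO cerebellum. WT hippocampus gave 3031, 3131 and 2878, WT cortex 3077, 3993 and 3709, and WT cerebellum 358, 382 and 339. Hippocampus and cortex overlapped in both genotypes, and cerebellum stood below both. In KO mice it was 9.35-fold higher in hippocampus (log2 3.22, adjusted p = 8.58e-09) and 9.10-fold higher in cortex (log2 3.19, adjusted p = 9.64e-09) than in cerebellum. Cortex minus hippocampus was -0.04 in KO (95% interval -0.23 to 0.15, limma adjusted p = 0.800). On the dimmer probe set, cortex lay above hippocampus without overlap, at 91.5 to 109 against 54.9 to 75.9 in KO. In WT that probe set gave 109 to 145 against 54.1 to 98.5. Its KO cortex minus hippocampus was 0.64 (limma adjusted p = 0.408). Over KO cerebellum it was 3.84-fold higher in hippocampus and 5.96-fold in cortex, with 2 of 3 KO cerebellar arrays under the floor.

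The lowest adjusted p of the 7 genes in cortex was that of Cx3cl1. The KO mean was 3164 ± 286 and the WT mean 3593 ± 469, a log2 difference of -0.18 (SE 0.10, 95% interval -0.38 to 0.02, limma adjusted p = 0.545). The Gapdh 3' to 5' probe set ratio, a measure of RNA integrity, was 0.804 ± 0.00773 in KO cortex and 0.903 ± 0.0202 in WT cortex. The same ratio of beta-actin was 1.77 ± 0.124 in KO and 1.77 ± 0.140 in WT cortex. Only the Gapdh ratio thus stood apart between genotypes there, and its part in the cortical values was not tested. In hippocampus the Cx3cl1 difference was 0.11 and in cerebellum -0.05. The dimmer Cx3cl1 probe set gave 54.9 to 75.9 in KO and 54.1 to 98.5 in WT hippocampus, and its difference there was -0.25. In cerebellum it gave 7.28, 48.8 and 7.29 in KO and 31.3, 29.7 and 30.8 in WT, a log2 difference of -0.90 with an unadjusted p of 0.0475 and a limma adjusted p of 0.405. The pair of probe sets thus differed in sign in hippocampus, and neither passed.

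St6galnac5 followed the hippocampus-first order of Ptk2b. KO hippocampus gave 1198, 1052 and 956, KO cortex 446, 412 and 439.5, and KO cerebellum 38.8, 47.2 and 47.1. WT hippocampus gave 1028, 982 and 998, WT cortex 479, 404 and 447, and WT cerebellum 43.6, 49.4 and 59.1. Again the 3 regions stood apart in both genotypes. In KO mice it was 24.1-fold higher in hippocampus than in cerebellum (log2 4.59, adjusted p = 8.82e-09), and 9.78-fold higher in cortex (log2 3.29, adjusted p = 8.35e-08). KO cortex was 2.46-fold lower than KO hippocampus (log2 -1.30, adjusted p = 0.000237), and the WT hippocampus to cortex ratio was 2.27. Its genotype differences had intervals of -0.17 to 0.35 in hippocampus, -0.29 to 0.23 in cortex and -0.45 to 0.07 in cerebellum.

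**Figure D2:**
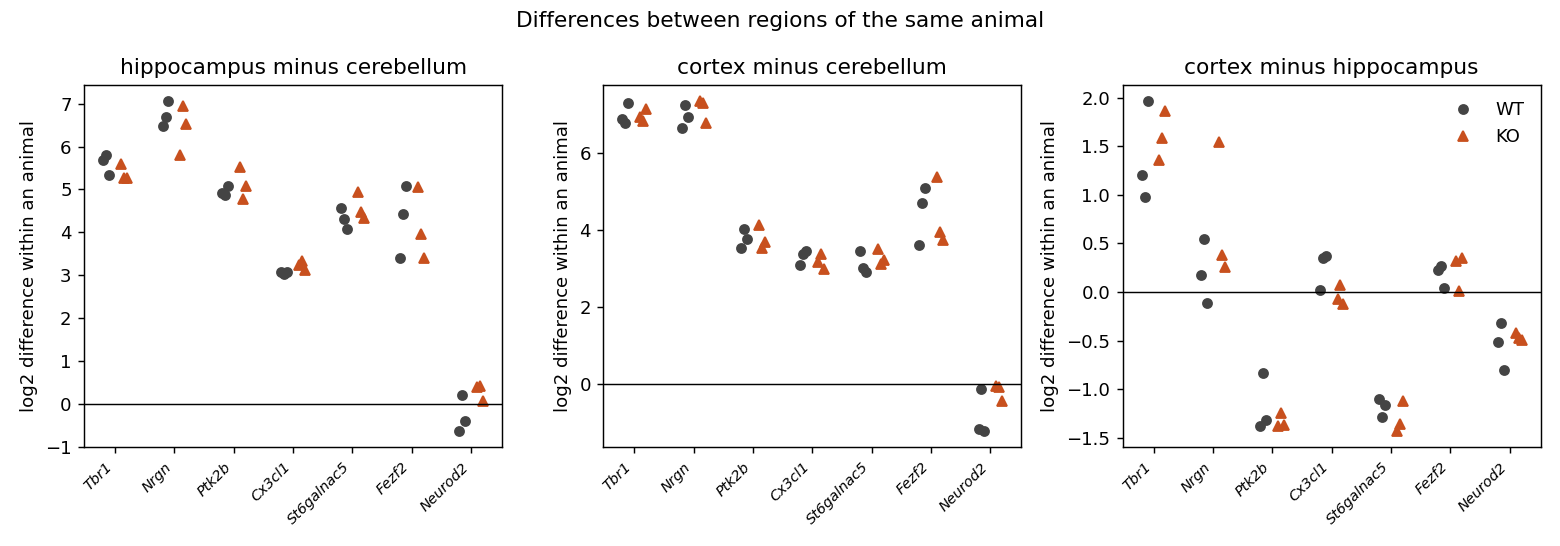
Log2 differences between regions within each mouse, on a log2 axis, for the 7 genes. Each point is 1 mouse, and the cortex minus hippocampus points of Tbr1 (0.98 to 1.96) and Ptk2b (-1.38 to -0.83) lie on opposite sides of 0.

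Called in the KO arrays were 6 of the 7 genes as higher in hippocampus than in cerebellum and 0 as lower, where 22.5% and 19.1% of all probe sets were called higher and lower. In cortex against cerebellum the counts were again 6 and 0, beside 21.5% and 19.4%. Between cortex and hippocampus 1 gene, Tbr1, was called higher in cortex and 3, Ptk2b, St6galnac5 and Neurod2, lower, beside 7.95% and 7.02%. Over the 11 alternatives run for this comparison, the highest limma adjusted p was 0.00856 for Tbr1, 0.0208 for Ptk2b and 0.0154 for St6galnac5. The beta-actin 3' to 5' ratio was 1.64 to 1.88 in KO cortex. It was lower in KO hippocampus (1.27 to 1.40) and KO cerebellum (1.34 to 1.39). Its part in the calls of cortex against the other regions cannot be told apart from region and was not tested. Since Tbr1, Nrgn, Fezf2 and Ptk2b could not have been kept without a high forebrain signal, the counts against cerebellum describe the choice and support nothing.

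No gene passed in any KO minus WT comparison. Called were 0 of 7 in hippocampus, beside 0.119% of all probe sets, 0 of 7 in cortex (0.286%) and 0 of 7 in cerebellum (0.0358%). Over the per-mouse mean of hippocampus and cortex it was 0 of 7 (0.0597%), and in the genotype by region test 0 of 7 (0.0477%). At an unadjusted limma p under 0.05, the counts were 0 of 7 in hippocampus, cortex, cerebellum and the forebrain mean, where 8.41%, 10.2%, 12.1% and 9.39% of all probe sets were under it. In the genotype by region test it was 1 of 7, Neurod2, beside 10.7%. The KO and WT arrays stood apart for 0 of 7 genes in hippocampus, cortex and cerebellum, where 17.3%, 14.2% and 15.2% of all probe sets did. In the forebrain mean the mice stood apart for 1 of 7, Tbr1, lower in KO, where 15% of all probe sets did. The median difference of the 7 genes was 0.11 in hippocampus, 0.13 in cortex and -0.05 in cerebellum, against 0.02, 0.00 and 0.03 over all probe sets. In cerebellum Tbr1 and Nrgn each had only 1 array above the floor. No genotype difference could be measured there for either, yet the cerebellar counts and median include both.

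In the per-mouse forebrain mean the intervals of all 7 genes were narrower than in hippocampus or cortex alone. The single-region intervals use a spread shared by all 6 groups, cerebellum included, while the forebrain mean leaves cerebellum out. The widths therefore do not compare like with like. Tbr1 had -0.11 (95% interval -0.29 to 0.06), Nrgn -0.13 (-0.45 to 0.19) and Ptk2b 0.22 (-0.04 to 0.49). Neurod2 had 0.19 (-0.09 to 0.46) and Fezf2 0.17 (-0.10 to 0.45). Cx3cl1 had -0.04 (-0.22 to 0.15) and St6galnac5 0.03 (-0.15 to 0.20). Limma's adjusted p ran from 0.586 for Ptk2b to 0.930 for St6galnac5.

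**Figure D3:**
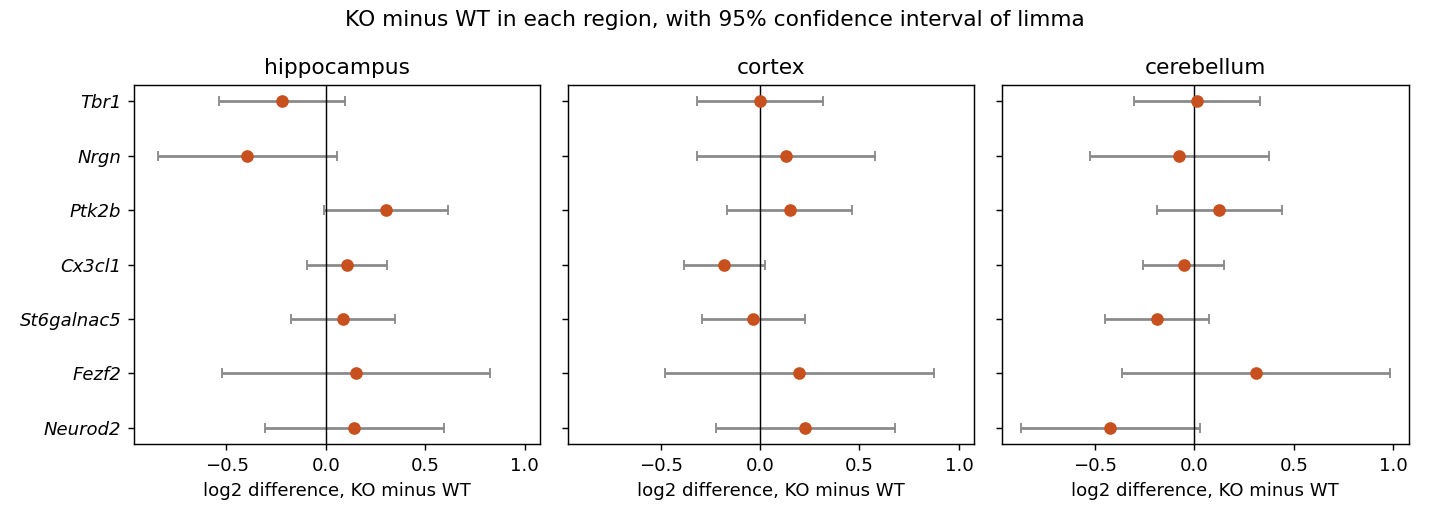
KO minus WT log2 difference of the 7 genes in each region, with limma's 95% confidence interval as a bar. All bars cross 0, and the widest are those of Fezf2 (-0.37 to 0.98 in cerebellum).

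Oligodendrocyte markers moved with genotype in the same forebrain arrays. All 6 tested were below 0 in KO minus WT hippocampus (median log2 -1.06) and cortex (median -1.11). Called lower were 2 in hippocampus and 5 in cortex, where 0.119% and 0.286% of all probe sets were called in either direction. In cerebellum 0 passed. The summed signal of the 7 on the array was 3919 to 5028 in KO and 5815 to 8791 in WT hippocampus, and 3324 to 4199 against 6299 to 8086 in cortex. Their part in the values of the 7 genes was not tested. Of the other cell types the tissue can hold, interneuron, striatal, granule, Purkinje, astrocyte, microglia and choroid plexus markers had 0 members called in any KO minus WT comparison. Microglia markers were above 0 for 7 of 7 in hippocampus (median 0.20), cortex (0.26) and the forebrain mean (0.20), and their part was not tested either.

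A wider list of 60 other forebrain excitatory neuron genes had 38 on the array and 35 tested. In KO minus WT, 0 of 35 passed in either direction in each region and in the forebrain mean. The median was 0.07 in hippocampus, -0.08 in cortex and 0.04 in cerebellum, beside 0.02, 0.00 and 0.03 for all probe sets. Camk2a and Crym lay under the floor on all cerebellar arrays, so neither could pass there. In hippocampus the lowest p were those of Tyro3, a receptor tyrosine kinase (log2 -0.46, SE 0.16, limma adjusted p = 0.445), and of Neurod6, a relative of Neurod2 (log2 0.52, SE 0.20, 0.507). In cortex they were those of Neurod6 (log2 -0.62, SE 0.20, 0.255) and Ppp3ca, the calcineurin catalytic subunit (log2 -0.33, SE 0.15, 0.474). In cerebellum they were those of Tyro3 (log2 -0.66, SE 0.16, 0.130) and Nptx1, a synaptic pentraxin (log2 -0.59, SE 0.17, 0.158).

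In KO arrays 29 of the 35 genes were called higher in hippocampus than in cerebellum and 2, Camk4 and Cux1, lower, beside 22.5% and 19.1% of all probe sets, with a median of 1.66 against 0.06. In cortex 28 were higher and 4, Camk4, Cux1, Nptx1 and Prox1, lower, beside 21.5% and 19.4%, with a median of 1.38 against 0.05. The list was made of known forebrain genes with earlier results in view, so these counts describe it. Other cell types shared the direction. Of 12 interneuron markers, 8 were called higher and 4 lower than in cerebellum in each of hippocampus and cortex. Of 7 microglia markers tested, 7 were called higher in hippocampus and 6 in cortex, and 0 lower. Camk4 encodes a kinase that granule cells also express. Between cortex and hippocampus, 7 were higher in cortex and 15 lower, beside 7.95% and 7.02% of all probe sets, with a median of -0.35 against -0.03. Mef2c (log2 1.90) and Rgs4 (1.35) stood on the side of Tbr1. Neurod6 (-2.40), Zbtb20 (-1.82) and Crym (-1.75) stood on the side of Ptk2b.

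**Figure D4:**
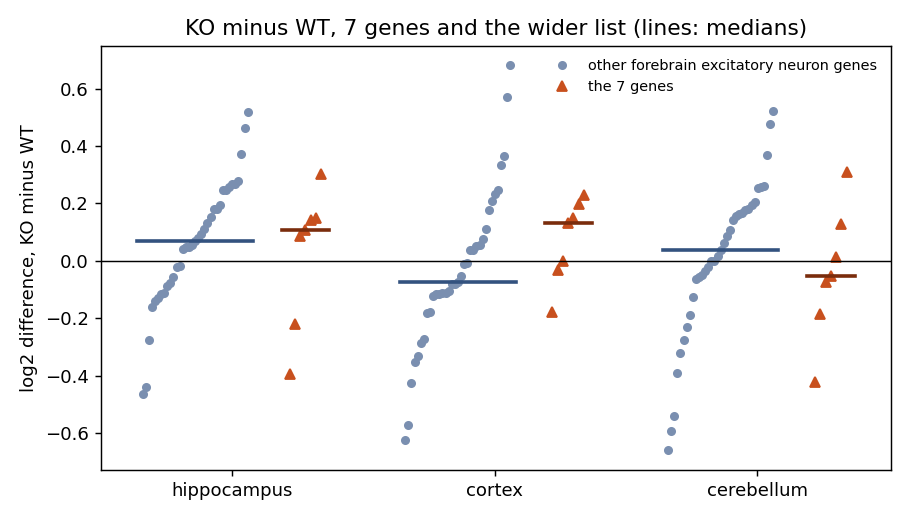
KO minus WT log2 differences of the 35 tested genes of the wider list (points) and of the 7 genes, by region, with the medians. The list medians are 0.07, -0.08 and 0.04 in hippocampus, cortex and cerebellum, and 0 of 35 genes passed.

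Genes whose regional pattern was nearest to each of the 7 were found by the root mean square difference of log2 values, centred on each gene, over the 18 arrays. Those values share the 3 regions of the 6 mice, so they describe the regions more than the genotype. Tbr1 and Nrgn were nearest to each other (0.62), and most of their cerebellar values were set to the floor. Icam5, which encodes an adhesion protein of forebrain dendrites, was among the 3 nearest of both (0.99 and 0.88). Ptk2b was nearest to Cpne6 (0.30), a calcium-dependent membrane-binding protein, and next to St6galnac5 (0.34). Cx3cl1 was nearest to Cck (0.21), Plk2 (0.24) and Dkk3 (0.29). Fezf2 was nearest to Ccn3 (0.43), Sst (0.48) and Pde1a (0.55), and Neurod2 to Mknk2 (0.20), Ptov1 (0.21) and Grina (0.22). Neurod2 was the farthest from the other 6 genes, from 1.67 to Cx3cl1 up to 3.37 to Nrgn.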

How the data were processed

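RNA of hippocampus, cortex and cerebellum from 3 KO and 3 WT mice was measured on 18 Affymetrix mouse arrays, and replicates are separate animals per the labels. The deposited values were taken as linear intensity per probe set. Their 2% trimmed mean was 150.07 to 150.08 on each array, from which a common scaling was inferred. For the summary software, nothing is stated in the labels. The array holds 12488 probe sets, of which 66 are controls and were dropped. A floor was set at the 20th percentile of all values (9.46) before log2 was taken. Probe sets above their array's 40th percentile on at least 3 arrays were kept, which left 8382. The annotation gave 10855 probe sets 1 symbol, 396 several and 1237 none. A gene with several probe sets is given by its brightest. KO and WT were compared with limma 3.58.1 (R 4.3.3) with an intensity trend. The KO minus WT fit used 6 group means over 18 arrays (12 residual degrees of freedom). The forebrain mean used 1 value per mouse, and the genotype by region F test and the KO regional fit had the animal as a block (4 residual degrees of freedom for the latter). Tests were two-sided. With 3 mice against 3, an exact permutation test cannot give a p under 0.1, so limma was used, and the number of arrays limits the precision. The pipeline was tested on simulated data.

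The animal pairs the regions of 1 mouse. Residuals correlated with a median of 0.135 within mice and -0.0483 between them. All 7 genes are named, with their 3 nearest genes by pattern. From the wider list, the 2 genes of lowest p in each region are named, and Mef2c, Rgs4, Zbtb20, Crym, Camk4, Cux1 and Prox1 were named after their values were seen. The members and lists were chosen with earlier results of these data known. Alternatives were median scaling or quantile normalization, 16 added or nothing in place of the floor, a filter at the 60th percentile or none, a fit without the intensity trend, the animal block, each region's own arrays, the other Cx3cl1 probe set and each mouse left out.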

Additional observations from a re-analysis of the deposited data

Results flagged for a closer look

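Nptx1 and Neurod6 of the wider list had KO and WT arrays that stood apart in opposite directions in different regions. Arrays stood apart in either direction for 17.3% of all probe sets in hippocampus, 14.2% in cortex and 15.2% in cerebellum. These are shares for single regions. The share of all probe sets apart in opposite directions in different regions was not computed, so whether the pattern is unusual cannot be said. Nptx1 had a log2 difference of 0.27 in hippocampus and -0.59 in cerebellum. Its genotype by region test in limma gave an adjusted p of 0.277. Neurod6 had 0.52 in hippocampus (KO 515 ± 37.3, WT 361 ± 58.8) and -0.62 in cortex (KO 98.7 ± 19.6, WT 154 ± 40.4); the same limma test gave an adjusted p of 0.192. Neither difference between regions passed.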

How the results depend on the processing

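Of 738 recomputed values of the 7 genes, 710 kept their direction and side of the threshold, 17 reversed, 5 lost and 6 gained a call. For Cx3cl1 the other probe set gave -0.25 in hippocampus. Quantile normalization gave 0.023 for Tbr1 in cortex and 0.062 for Cx3cl1 in the forebrain mean. Median scaling gave 0.014 for Tbr1 in cortex, -0.0086 for St6galnac5 in the forebrain mean and 0.00174 for Cx3cl1 between KO cortex and hippocampus. Leaving out 1 mouse moved Tbr1 in cortex from -0.10 to 0.15, St6galnac5 from -0.099 to 0.025 in cortex and -0.028 to 0.064 in the forebrain mean, Cx3cl1 from -0.088 to 0.018 in the forebrain mean and -0.095 to 0.0031 between KO cortex and hippocampus, and Fezf2 in cerebellum from -0.00095 to 0.78. Counts over all probe sets moved more. In cerebellum 3 calls became 15 with median scaling, 5 with no filter, 9 with the 60th percentile filter, 1 with no trend and 0 with its own arrays, which gave 1 in hippocampus (from 10) and 3 in cortex (from 24). In the forebrain mean 5 became 18 with no floor or 16 added, 17 with the 60th percentile filter and 0 with no filter or no trend. The genotype by region count of 4 became 2 with no filter and 0 with no trend, and the KO cortex against hippocampus count of 1254 became 713 and 823. Without 1 mouse, counts ran from 3 to 22 in hippocampus, 6 to 32 in cortex, 0 to 121 in cerebellum (of the 7 genes, 0 to 1), 0 to 15 in the forebrain mean, 0 to 6 for genotype by region and 463 to 681 between KO cortex and hippocampus. With the replicate block, KO minus WT counts were 11, 25 and 3 in hippocampus, cortex and cerebellum. Of the 7 genes, 0 changed a KO minus WT call with it. With no replicate block, the counts were 3153, 3080 and 1035 in the KO regional comparisons. Median scaling turned the split of hippocampal calls from 3 higher and 7 lower to 2 and 12, and that of KO hippocampus against cerebellum from 1883 and 1600 to 1388 and 2107. Folds against cerebellum depend on the floor: Tbr1 in KO hippocampus was 6.01 in log2 with none. The causes of these shifts were not tested.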
